A study of Mus musculus with 48 samples.

Results

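Monocytes and macrophages find their places in a tissue with receptors that read chemical gradients, and 9 such receptor genes, *Ccr1*, *Ccr2*, *Ccr7*, *Cx3cr1*, *Cxcr2*, *Cxcr3*, *Cxcr4*, *Ccrl2*, and *S1pr1*, were followed from monocytes to red pulp macrophages (RPMs) of the spleen. They were taken by gene symbol and are 9 of the 54735 genes counted in each library. RNA-seq libraries had been made from monocytes (sorted as Ly6Glo CD11bhi F4/80-), pre-RPMs (Ly6Glo CD11bhi F4/80lo), and RPMs (Ly6Glo CD11blo/- F4/80hi) of Balb/c spleens. The donors were male mice at the age of 10 weeks, either wild type (WT) or labelled IL1RL1-/-, a mutant of the IL-33 receptor gene for which no Cre or cell type driver is named. Each of 4 mice per genotype gave 1 library of each cell type, 24 in all, and the mouse number in the labels ties the 3 libraries of 1 animal together. The 24 chromatin accessibility samples among the 48 of the study were not analysed here.

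Chemokine receptors are G protein-coupled receptors that turn a gradient of chemokine into directed movement, mostly through G proteins of the inhibitory class. In monocytes, *Ccr2* is known for the exit from bone marrow, *Cx3cr1* for survival and patrolling along vessels, and *Cxcr4* for retention in bone marrow. *Ccrl2* encodes an atypical receptor that binds chemerin without the usual signal, and *S1pr1* encodes no chemokine receptor but a receptor for sphingosine-1-phosphate (S1P), the lipid that leads lymphocytes out of lymphoid organs.

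The cell type labels were first set against marker genes. The 10 markers of RPMs, among them *Spic*, *Vcam1*, *Hmox1*, and *Slc40a1*, summed to between 6547 and 9114 CPM (the counts of a gene per 1000000 counts of its library, scaled with TMM factors) in the 8 RPM libraries, to between 159.5 and 354 in pre-RPMs, and to between 44.3 and 141 in monocytes. Markers of other cells were present as well. The summed CPM of 10 NK cell markers, led by *Gzma*, was 1879, 2155, 664, and 1239 in WT monocytes of mice 1, 2, 3, and 4, and 1789.7, 1351, 589, and 931 in monocytes labelled *Il1rl1*-/-, whereas no pre-RPM library exceeded 180.0 and no RPM library 62.9. In the same order, 9 classical monocyte markers, led by *Fn1*, summed to 702.4, 475, 2057, and 1536 in WT monocytes and to 848, 1250.4, 2511, and 1802 in the labelled ones. The monocyte libraries of mice 1 and 2 thus had the 2 highest NK cell sums and the 2 lowest classical monocyte sums of their genotype. All marker lists and their values are those of whole sorted populations, in which fewer cells of a type and less RNA per cell cannot be told apart.

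*Il1rl1*, the gene targeted in the mutant (GRCm38, chr1:40429570-40465415), went against the labels in part. Its counts in mice 1, 2, 3, and 4 were 28, 19, 12, and 13 in WT monocytes and 51, 73, 71, and 64 in monocytes labelled *Il1rl1*-/-. In pre-RPMs they were 18, 15, 13, and 24 against 50, 76, 42, and 65, and in RPMs 5, 9, 7, and 13 against 1, 7, 3, and 6. The labelled libraries were the higher ones in monocytes (log2 fold change 2.13, SE 0.23, edgeR's adjusted p = 0.00882) and in pre-RPMs (1.53, SE 0.20, edgeR's adjusted p = 0.00107), and in RPMs the gene was too low to be tested. Without the labelled monocyte library of mouse 2, the adjusted p in monocytes was 0.0530 (edgeR, log2 fold change 2.09). The counts cover the whole gene, and which exons the mutation removes is not given in the sources used here, so that they may not check its absence. Mutant libraries are therefore named by their label, and every direction between genotypes is one between labels.

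The libraries held between 3562367 and 6559454 counts (median 4728764), and between 24.4% and 38.8% of these fell on 1 gene, *Gm42418*. A count of 3 was taken as the floor below which a value is not told apart from 0. Before TMM scaling it corresponded to between 0.457 and 0.842 counts per 1000000. Bounds were computed with 3 counts on the scaled CPM. Of the 9 receptor genes, *Ccr2* (33773 counts over the 24 libraries), *Cx3cr1* (9653), and *Cxcr4* (2332) were well covered, and the other 6 had between 211 and 793 counts.

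In GRCm38, 4 of the 9 genes lay on chromosome 9. *Ccr1* (chr9:123962124-123968692, minus strand) and *Ccr2* (chr9:124101950-124113557, plus strand) were the closest of these 4 to each other. *Cx3cr1* (chr9:119901616-120069879, minus) and *Ccrl2* (chr9:111054486-111057519, minus) lay farther off. *Cxcr2* (chr1:74153989-74161246, plus) and *Cxcr4* (chr1:128588199-128592293, minus) shared chromosome 1 with *Il1rl1*, at 33.7 and 88.1 Mb from it. The others were *Ccr7* (chr11:99144196-99155077, minus), *Cxcr3* (chrX:101731535-101734269, minus), and *S1pr1* (chr3:115710433-115715072, minus). The only overlap of their counted exons with another gene was that of 78 exon bases of *Cx3cr1* with *Gm33858* on the opposite strand, and the counting was strand-specific.

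RefSeq promoters (250 bases before to 50 after a start, GRCm38.p6) were matched for 7 of the 9 genes, not for *Ccr7* and *S1pr1*. The 4 genes that were lower in RPMs than in pre-RPMs are shown, as the 250 bases before the start of *Ccr1* and *Cxcr4* (chr9:123968693-123968942 and chr1:128592300-128592549, both minus strand) and as 30 bases around a match for *Ccr2* (chr9:124102074-124102103, plus strand) and *Cx3cr1* (chr9:120068499-120068528, minus strand), which lie in an exon of a longer transcript. Capitals mark matches to letters searched on both strands, of which AGATAA is known from the GATA family of factors, CACCC from the KLF family, and TATAAA as the TATA box:
Ccr1: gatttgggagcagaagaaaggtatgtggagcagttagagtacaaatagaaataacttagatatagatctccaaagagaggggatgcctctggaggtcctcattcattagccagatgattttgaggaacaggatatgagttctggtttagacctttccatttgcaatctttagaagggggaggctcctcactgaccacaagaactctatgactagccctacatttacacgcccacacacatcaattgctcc
Cxcr4: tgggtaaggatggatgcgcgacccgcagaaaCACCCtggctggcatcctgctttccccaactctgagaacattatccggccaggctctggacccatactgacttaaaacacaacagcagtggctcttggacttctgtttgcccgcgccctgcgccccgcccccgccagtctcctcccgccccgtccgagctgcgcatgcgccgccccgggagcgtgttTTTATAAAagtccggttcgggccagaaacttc
Ccr2: tcacttgctcttTTATCTccgccttctctt
Cx3cr1: ccccaggtctgcCACCCaacagtccccagt

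These matches are descriptions of the letters in the windows. A CACCC match stood in 4 of the 7 matched genes and in 57.5% of 32851 promoters of the same length, an AGATAA match in 2 of 7 genes and 11.2% of promoters, and a TATAAA match in 1 gene and 13.6% of promoters. The 4 printed genes held no letters in common by this search, since *Ccr1* had no match to any motif searched. The other motifs were GAGGAAGT (PU.1), found in 1 of the 7 genes, *Cxcr3*, and 3.2% of promoters, TGACTCA (AP-1), found in none of the 7 and 5.2%, and TTGCGCAA (C/EBP), found in none and 0.183%.

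**Figure D1:**
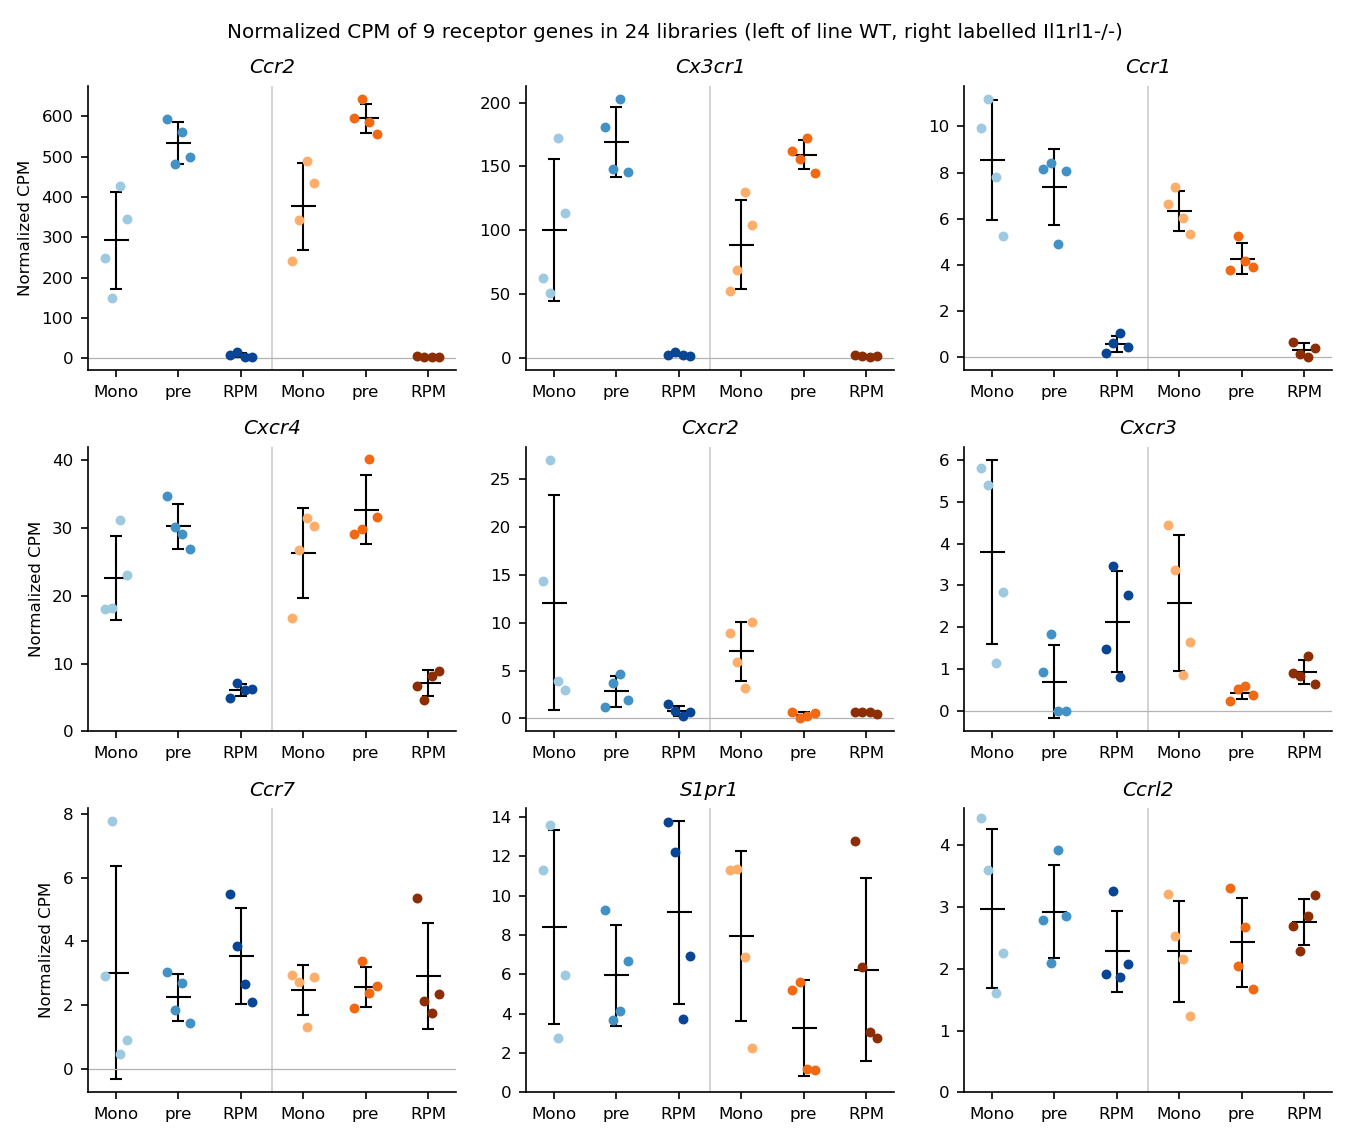
Normalized CPM (vertical axes, each panel on its own scale from 0) of the 9 receptor genes in monocytes (Mono), pre-RPMs (pre), and RPMs, with 1 point per library and the mean with SD as a black bar. *Ccr2* lies between 149 and 643 CPM in all monocyte and pre-RPM libraries and at 14.3 or less in RPMs, while the points of *Ccr7*, *S1pr1*, and *Ccrl2* overlap across the 6 groups.

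*Ccr2*, the receptor for the CCL2 family that draws classical monocytes out of the marrow, was the most abundant of the 9 genes per length in every group but the RPMs. Its CPM in mice 1, 2, 3, and 4 was 248, 149, 427, and 346 in WT monocytes, 593, 482, 560.2, and 500.1 in WT pre-RPMs, and 9.11, 14.3, 2.14, and 3.93 in WT RPMs. In the libraries labelled *Il1rl1*-/- it was 241, 342, 488, and 435 in monocytes, followed by 595, 643, 587, and 557 in pre-RPMs and by 4.93, 3.92, 1.75, and 2.56 in RPMs. Every pre-RPM library was above every monocyte library of its genotype, and every RPM library was far below both. *Ccr2* fell by 6.18 on the log2 scale between pre-RPMs and RPMs of WT mice (SE 0.38, edgeR's adjusted p = 9.05e-09) and fell by 7.53 between those of labelled mice (SE 0.20, edgeR's adjusted p = 1.65e-13). Between monocytes and RPMs it fell by 5.29 (SE 0.52, edgeR's adjusted p = 1.11e-05) and fell by 6.81 (SE 0.32, edgeR's adjusted p = 6.06e-09).

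The step from monocytes to pre-RPMs was smaller for *Ccr2*. The log2 fold change was 0.87 in WT mice (adjusted p = 0.0460 in edgeR, SE 0.26) and 0.67 in labelled mice (SE 0.18, edgeR's adjusted p = 0.0252), neither of which passed the threshold for cell types, which asks for an adjusted p below 0.01 with a log2 fold change beyond 1 in either direction. The low monocyte values were those of mice 1 and 2, whose NK cell sums were highest. Without these libraries, a choice made after seeing the data, the log2 fold changes were 0.47 (edgeR's adjusted p = 0.0923) and 0.36 (edgeR's adjusted p = 0.0661). Without the WT monocyte library of mouse 3, which had the lowest NK cell sum, the change in WT mice was 1.11 and passed (edgeR's adjusted p = 0.00493). The libraries left out were the lowest or the highest monocytes for *Ccr2*, so that the direction of each shift followed from the choice. The part of the NK cell content in this step was not tested. The labels name no NK cell antigen for the sort, and the flow cytometry of the study was gated on cells low in CD11c, Ly6G, NK1.1, and side scatter. Whether that gate was used for these libraries, or would remove NK cells of Balb/c mice, is not given in the sources used here.

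*Cx3cr1*, the receptor for the membrane-bound chemokine CX3CL1 and a known mark of patrolling monocytes, took the same course. WT libraries of mice 1, 2, 3, and 4 had 62.9, 51.1, 172, and 114 CPM in monocytes, followed by 181, 148, 203, and 145 in pre-RPMs and by 2.54, 4.48, 2.40, and 1.39 in RPMs. Libraries labelled *Il1rl1*-/- had 52.5, 68.7, 129.8, and 104 CPM in monocytes, followed by 162, 156, 172, and 145 in pre-RPMs and by 2.02, 1.47, 0.438, and 1.70 in RPMs. The RPM libraries stood apart from all others, and the WT monocyte and pre-RPM libraries overlapped through monocytes of mouse 3. *Cx3cr1* fell by 5.97 on the log2 scale between pre-RPMs and RPMs in WT mice (SE 0.23, edgeR's adjusted p = 1.60e-10) and fell by 6.84 in labelled mice (SE 0.19, edgeR's adjusted p = 2.67e-13). Between monocytes and RPMs the log2 fold changes were -5.19 and -5.95, both called. From monocytes to pre-RPMs they were 0.76 (SE 0.32, edgeR's adjusted p = 0.125) and 0.84 (SE 0.22, edgeR's adjusted p = 0.0222), not called. That step also followed the monocyte libraries left out, at 1.16 without the WT monocytes of mouse 3 (called, edgeR's adjusted p = 0.00486), 1.08 without the labelled monocytes of mouse 3 (called, edgeR's adjusted p = 0.00229), and 0.25 and 0.43 without those of mice 1 and 2 (not called). Here too the libraries left out were the highest or the lowest monocytes for the gene.

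Markers of nonclassical, patrolling monocytes went with *Cx3cr1* in part. The 10 markers, *Cx3cr1* not among them, summed to 1332, 1393, 1926, and 1607 CPM in WT monocytes of mice 1, 2, 3, and 4, to 1474, 1452, 1515, and 1203 in WT pre-RPMs, and to 484, 482, 543, and 474 in WT RPMs. In labelled mice they summed to 1325, 1365, 1897, and 1820 CPM in monocytes, to 1696, 1669.9, 1879, and 1826 in pre-RPMs, all above the WT pre-RPMs, and to 472, 446, 429, and 498 in RPMs. In each genotype 6 of 10 were called lower in RPMs than in pre-RPMs, among them *Nr4a1* and *Ace*, and none higher, with a median log2 fold change of -2.46 in WT and -3.38 in labelled mice. The sum in RPMs was led by *Adgre4*, at 271 CPM in WT mice, which was called higher in RPMs than in monocytes. Of the monocyte libraries, those of mice 1 and 2 had the 2 lowest sums in both genotypes, as for *Cx3cr1*.

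*Ccr1*, a receptor for CCL3, CCL5, and related inflammatory chemokines, was low in monocytes and pre-RPMs and near the floor in RPMs. The WT libraries of mice 1, 2, 3, and 4 had 9.94, 11.2, 7.80, and 5.24 CPM in monocytes, followed by 8.14, 8.40, 4.90, and 8.09 in pre-RPMs and by 0.212, 0.611, 1.07, and 0.462 in RPMs. The libraries labelled *Il1rl1*-/- had 6.65, 7.36, 6.03, and 5.35 CPM in monocytes, followed by 3.78, 5.26, 4.16, and 3.91 in pre-RPMs and by 0.673, 0.163, 0, and 0.426 in RPMs, the last being counts of 3, 1, 0, and 2. RPM libraries again lay below all others, and the labelled pre-RPM libraries lay just below the labelled monocyte libraries. *Ccr1* fell by 3.68 on the log2 scale between WT pre-RPMs and RPMs (SE 0.38, edgeR's adjusted p = 1.74e-06). In labelled mice it was at least 6.96-fold lower in RPMs than in pre-RPMs, taking the floor in each RPM library, and called by edgeR (adjusted p = 4.49e-06). Between monocytes and pre-RPMs it was not called in either genotype (log2 fold changes -0.21 and -0.55).

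*Cxcr4*, the receptor for CXCL12, fell the least of the called genes and stayed above the floor in RPMs. It had 18.1, 18.2, 31.2, and 23.1 CPM in WT monocytes of mice 1, 2, 3, and 4, 34.6, 30.2, 29.2, and 26.9 in pre-RPMs, and 4.87, 7.13, 6.14, and 6.23 in RPMs. Among labelled libraries it had 16.7, 26.7, 31.4, and 30.2 CPM in monocytes, followed by 29.1, 29.8, 40.2, and 31.7 in pre-RPMs and by 6.73, 4.58, 8.11, and 8.95 in RPMs. Monocytes and pre-RPMs overlapped in both genotypes, and RPMs did not overlap with either. Between pre-RPMs and RPMs *Cxcr4* fell by 2.35 on the log2 scale in WT mice (SE 0.16, edgeR's adjusted p = 1.88e-08) and fell by 2.27 in labelled mice (SE 0.18, edgeR's adjusted p = 4.19e-08).

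**Figure D2:**
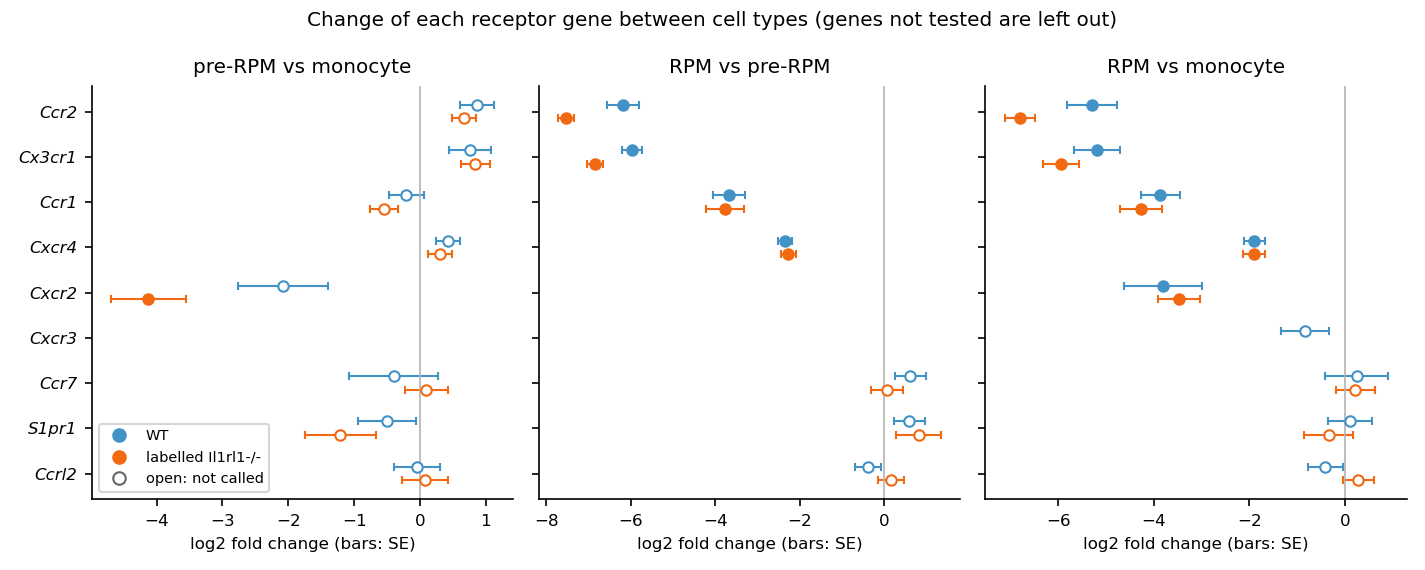
Log2 fold change (horizontal axes, bars are the SE) of each receptor gene tested between cell types in WT mice (blue) and in mice labelled *Il1rl1*-/- (orange), with filled points for called changes. The points of *Ccr2* and *Cx3cr1* lie at -5.19 or lower in the comparisons with RPMs, those of *Cxcr4* between -2.35 and -1.90, and no point to the right of 0 is filled.

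Of the 7 receptor genes that passed the filter on low counts between WT pre-RPMs and RPMs, 4 were called lower and none higher, in a comparison where 24.7% of all genes tested were called, 10.7% lower and 14.0% higher. Between labelled pre-RPMs and RPMs the same 4 of 7 were called lower (26.0% of genes called, 11.5% lower and 14.5% higher). Against monocytes, RPMs had 5 of 9 genes called lower in WT mice (23.9% called, 10.5% lower) and 5 of 8 in labelled mice (25.9% called, 11.6% lower), the fifth gene being *Cxcr2*. Between monocytes and pre-RPMs none of 8 was called by edgeR in WT mice, where 3.57% of genes were called (168 to 1041 genes with single libraries left out, against 396) and 31.9% had an unadjusted p under 0.05. For this count, 4 of the 8 genes, *Ccr2*, *Cx3cr1*, *Cxcr2*, and *Cxcr4*, had an unadjusted p under 0.05. In labelled mice 1 of 8, *Cxcr2*, was called lower (4.85% called, 3.88% lower).

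*Cxcr2*, the receptor through which neutrophils follow CXCL1 and CXCL2, was seen mainly in monocyte libraries. The CPM of mice 1, 2, 3, and 4 was 14.4, 27.0, 3.90, and 3.00 in WT monocytes, 1.16, 3.67, 4.65, and 1.90 in WT pre-RPMs, and 1.48, 0.815, 0.267, and 0.693 in WT RPMs. In labelled mice it was 8.87, 5.89, 3.23, and 10.1 in monocytes, followed by 0.709, 0, 0.297, and 0.559 in pre-RPMs and by 0.673, 0.654, 0.658, and 0.426 in RPMs. The labelled pre-RPM libraries, with 3 counts or fewer each, did not overlap with the labelled monocyte libraries or with the WT pre-RPM libraries. *Cxcr2* was at least 10.5-fold lower in labelled pre-RPMs than in labelled monocytes (edgeR's adjusted p = 0.000579), and in WT mice the same step had a log2 fold change of -2.08 (adjusted p = 0.0632 in edgeR, SE 0.69), not called. The difference between these changes was not called (interaction -2.05, SE 1.05, edgeR's adjusted p = 1.00). With single libraries left out, the WT change ranged from -2.43 to -1.34 and the interaction from -2.79 to -1.55. RPMs had less *Cxcr2* than monocytes in WT mice (log2 fold change -3.81, SE 0.82, edgeR's adjusted p = 0.00278) and in labelled mice (-3.47, SE 0.44, edgeR's adjusted p = 3.32e-05). The WT call was lost without the RPM library of mouse 3 (edgeR's adjusted p = 0.0104) or of mouse 4 (0.0120), and without the monocytes of mice 1 and 2 the log2 fold change was -2.003 (edgeR's adjusted p = 0.00717).

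The summed neutrophil markers, like *Cxcr2*, were highest in monocytes. The 12 markers, most abundantly *S100a9* in monocytes, summed to 2542, 1385, 2129, and 837 CPM in WT monocytes, 393, 331, 377, and 312 in WT pre-RPMs, and 53.4, 61.9, 49.1, and 54.7 in WT RPMs. In labelled mice the sums were 1061, 2140.0, 1911, and 2094 in monocytes, followed by 316, 340.4, 577, and 443 in pre-RPMs and by 45.7, 44.6, 40.1, and 45.6 in RPMs. Between monocytes and pre-RPMs 5 of 11 markers tested were called lower and 1 higher in WT mice, and 6 of 11 lower and 1 higher in labelled mice. In RPMs *Ly6g*, *Mmp8*, and *Elane* had 3 counts or fewer in each library of both genotypes. Among WT monocyte libraries the order was not that of *Cxcr2*, which was highest in mouse 2, and the part of neutrophils in the *Cxcr2* counts was not tested. By its labels the sort took Ly6Glo cells, and how far this gate left neutrophils out was not tested.

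*Cxcr3*, a receptor of activated T and NK cells for CXCL9 and CXCL10, was the least counted gene. Its CPM in mice 1, 2, 3, and 4 was 5.81, 5.39, 1.15, and 2.85 in WT monocytes, 0.930, 1.84, 0, and 0 in WT pre-RPMs, and 1.48, 3.46, 0.801, and 2.77 in WT RPMs. For labelled mice the values were 4.43, 3.36, 0.861, and 1.65 in monocytes, followed by 0.236, 0.509, 0.595, and 0.373 in pre-RPMs and by 0.897, 0.817, 1.32, and 0.639 in RPMs. In both genotypes the monocytes of mice 1 and 2 were the highest libraries, as they were for NK cell markers. The sums of 10 T cell markers, led by *Cd2* in monocytes, followed alike, with 213, 282, 91.1, and 163 CPM in WT monocytes and 267, 193, 80.3, and 117 in labelled monocytes. Labelled pre-RPMs had at least 3.86-fold less *Cxcr3* than labelled monocytes, with no test because it did not pass the filter, and between WT monocytes and RPMs it was not called (log2 fold change -0.84, SE 0.51, edgeR's adjusted p = 0.200).

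*S1pr1* was present in every library and varied widely between mice of a group. WT mice 1, 2, 3, and 4 had 11.3, 13.6, 2.75, and 5.99 CPM in monocytes, followed by 9.30, 3.67, 4.16, and 6.66 in pre-RPMs and by 13.8, 12.2, 3.74, and 6.93 in RPMs. Labelled mice had 11.3, 11.4, 6.89, and 2.26 CPM in monocytes, followed by 5.20, 5.60, 1.19, and 1.12 in pre-RPMs and by 12.8, 6.38, 3.07, and 2.77 in RPMs. Libraries of mice 1 and 2 were the 2 highest of their group in 5 of the 6 groups, the exception being WT pre-RPMs. No comparison of cell types was called by edgeR with the filter on low counts and no mouse number in the model. In labelled mice, from monocytes to pre-RPMs the log2 fold change was -1.21 (adjusted p = 0.152 in edgeR, SE 0.54), and with the mouse as a block it was -1.26 and passed the threshold (edgeR's adjusted p = 0.00597). With every gene with at least 1 count kept and no block, the log2 fold change was still -1.21 and *S1pr1* passed (edgeR's adjusted p = 0.000254). Over all genes that fit called 1060 of 30423 and the block fit 751 of 11196, against 543 of 11196 with the filter and no block. Without the labelled monocytes of mice 1 and 2 it was -0.43 (edgeR's adjusted p = 0.752).

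Lymphocyte markers were also highest in mice 1 and 2 in the RPM libraries. T cell markers summed to 94.3, 120.1, 29.1, and 38.3 CPM in WT RPMs and to 71.3, 32.7, 23.2, and 31.5 in labelled RPMs. The sums of 8 B cell markers were 407, 704.8, 250.01, and 223 in WT RPMs and 215, 126, 83.5, and 93.9 in labelled RPMs. Erythroid markers ran the other way in these libraries, with sums of 1761, 1109, 21589, and 8945 in WT RPMs and of 2445, 770.5, 10051, and 13802 in labelled RPMs. The part of lymphocytes in the *S1pr1* and *Cxcr3* counts was not tested.

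**Figure D3:**
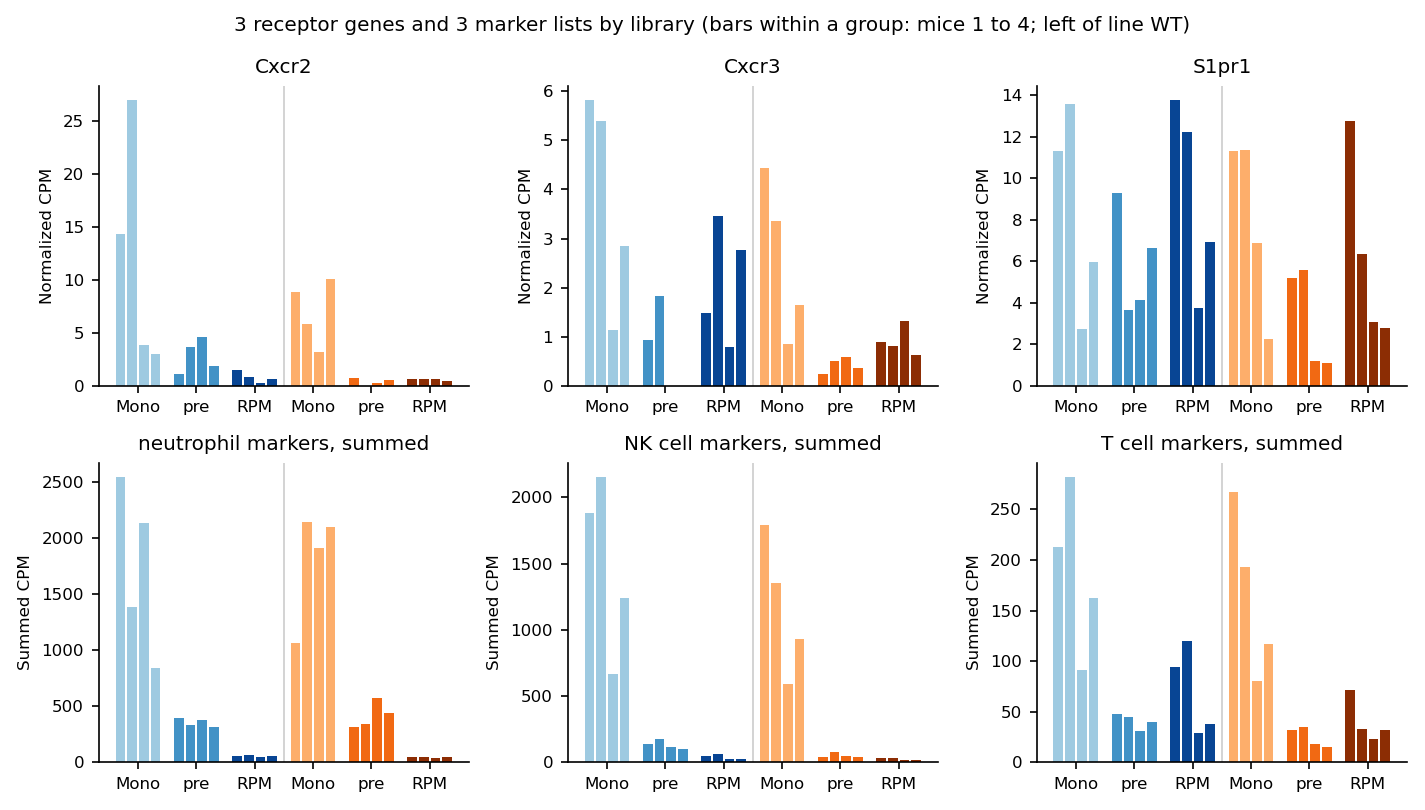
CPM of *Cxcr2*, *Cxcr3*, and *S1pr1* (upper panels) and summed CPM of the neutrophil, NK cell, and T cell marker lists (lower panels) in each library, in bars ordered by mouse number within each group. Within each genotype, NK and T cell sums and *Cxcr3* are highest in the monocytes of mice 1 and 2. The neutrophil sum of labelled monocytes is lowest in mouse 1, at 1061.

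*Ccr7*, the receptor that guides dendritic cells and T cells to lymph nodes, stayed low throughout. It had 2.91, 7.79, 0.459, and 0.899 CPM in WT monocytes, 3.02, 1.84, 2.69, and 1.43 in WT pre-RPMs, and 5.51, 3.87, 2.67, and 2.08 in WT RPMs of mice 1, 2, 3, and 4. In labelled mice it ranged from 1.29 to 2.96 in monocytes, from 1.89 to 3.39 in pre-RPMs, and from 1.75 to 5.38 in RPMs. The groups overlapped, and none of the 6 comparisons of cell types was called (log2 fold changes between -0.40 and 0.62). Without the WT monocytes of mice 1 and 2, *Ccr7* was called higher in WT RPMs than in the 2 monocyte libraries left, with a log2 fold change of 2.26 (edgeR's adjusted p = 0.00824). The 8 dendritic cell markers, led by *Dpp4* in WT mice, summed to between 65.6 and 146 CPM in WT monocytes, 40.2 and 68.2 in WT pre-RPMs, and 12.8 and 36.5 in WT RPMs, and their part in the *Ccr7* counts was not tested. Whether the CD11c gate named above was used for these libraries is not given in the sources used here.

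*Ccrl2* was the most even of the 9 genes, with group means from 2.28 to 2.97 CPM. In WT mice it ranged from 1.61 to 4.44 CPM in monocytes, from 2.10 to 3.92 in pre-RPMs, and from 1.87 to 3.26 in RPMs, and in labelled mice from 1.23 to 3.20, from 1.68 to 3.31, and from 2.29 to 3.20. All groups overlapped, and no comparison of cell types was called (log2 fold changes between -0.41 and 0.28). At 6 to 29 counts per library, a change of moderate size may not have been detectable.

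The genotype comparison asked whether receptor expression differed between libraries labelled *Il1rl1*-/- and WT libraries of the same cell type, at an adjusted p under 0.05. With the filter on low counts, none of the 9 genes tested in monocytes, of the 7 in pre-RPMs, or of the 5 in RPMs was called by edgeR, in comparisons where 0.0614%, 0.552%, and 0.233% of all genes were called. At an unadjusted p under 0.05, edgeR found 0 of them in monocytes (3.59% of all genes tested), 1 in pre-RPMs (*Ccr1*, 8.79% of all genes), and 1 in RPMs (*Ccr2*, 7.28% of all genes). *Ccr1* had a log2 fold change of -0.77 in labelled against WT pre-RPMs (SE 0.24, edgeR's adjusted p = 0.277), with overlap through WT mouse 3. *Ccr2* had one of -1.19 in RPMs (SE 0.49, edgeR's adjusted p = 0.655), where WT mice 1 and 2, at 9.11 and 14.3 CPM, were above every labelled library and WT mice 3 and 4 were not. Where every gene with at least 1 count was kept, edgeR called *Ccr2* in RPMs (adjusted p = 0.00460) and *Cxcr2* in pre-RPMs, and DESeq2 called *Cxcr2* in pre-RPMs. Over all genes, these edgeR fits called 272 of 32410 in RPMs and 265 of 29825 in pre-RPMs, and DESeq2 called 70 of 29825 in pre-RPMs. The classical monocyte markers summed to 137, 143, 132, and 114 CPM in the WT RPM libraries and to 121, 118, 108, and 130.1 in the labelled ones. *Cxcr2* was at least 4.27-fold lower in labelled than in WT pre-RPMs without overlap, which 4.96% of genes tested there showed, and was too low for the test. Markers of other cells differed between the same libraries. Summed CPM lay between 12.6 and 64.9 in WT and between 3.31 and 5.22 in labelled pre-RPMs for 8 basophil and mast cell markers, between 98.0 and 180.0 and between 37.8 and 76.7 for NK cell markers, and between 180.5 and 239 and between 79.0 and 179.6 for B cell markers, none of which overlapped. The neutrophil sums, 312 to 393 in WT and 316 to 577 in labelled pre-RPMs, did overlap. Called lower in labelled pre-RPMs were 1 of 2 basophil and mast cell markers tested (*Gata2*), 4 of 7 NK cell markers, 2 of 8 B cell markers, and none of 10 neutrophil markers, and the part of these cells in the *Cxcr2* difference was not tested.

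Whether the change between cell types differed by genotype was tested as an interaction over the 24 libraries. With the filter on low counts, none of the 9 genes was called by edgeR for any of the 3 steps, where 0.0234% (pre-RPMs to RPMs), 0.00% (monocytes to pre-RPMs), and 0.0311% (monocytes to RPMs) of 12842 genes were called. The interaction of *Ccr2* was -1.34 for pre-RPMs to RPMs (edgeR's adjusted p = 0.723) and -1.55 for monocytes to RPMs (edgeR's adjusted p = 0.665). That of *Cx3cr1* for pre-RPMs to RPMs was -0.86 (SE 0.67, edgeR's adjusted p = 0.957). At an unadjusted p under 0.05, edgeR found 2 of the 27 interactions, both of *Ccr2*. Over all genes the share was 5.90% at the step from pre-RPMs to RPMs, 4.18% from monocytes to pre-RPMs, and 5.24% from monocytes to RPMs. With every gene with at least 1 count kept, *Ccr2* was called for both steps that end in RPMs (edgeR's adjusted p = 0.000341 and 1.46e-05). In those fits 197 and 179 of 37883 genes were called.

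Levels of different genes were compared per kilobase of exon. In WT pre-RPMs *Ccr2* had 79.0 CPM per kb, *Cx3cr1* 37.6, *Cxcr4* 16.7, and *Ccr1* 2.61. In WT RPMs *Cxcr4* had 3.37 ± 0.513 CPM per kb and *S1pr1* 3.01 ± 1.53 (SD, n = 4), with overlapping libraries, *Ccr7* had 1.79, *Cxcr3* 1.23, *Ccr2* 1.09, *Cx3cr1* 0.600, and *Ccr1* 0.208. In labelled RPMs *Cxcr4* had 3.92 ± 1.06 CPM per kb and *S1pr1* 2.05 ± 1.53 (SD, n = 4), again with overlap, and *Ccr2* had 0.487. The order of *Ccr2*, *Cx3cr1*, and *Cxcr4* in monocytes and pre-RPMs was thus not that in RPMs.

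By mean CPM, the groups of *Ccr2* fell in the order labelled pre-RPMs (596 ± 35.9, SD, n = 4), WT pre-RPMs (534 ± 51.7), labelled monocytes (376 ± 109), WT monocytes (292 ± 120.3), WT RPMs (7.36 ± 5.47), and labelled RPMs (3.29 ± 1.41). Neighbours in that order overlapped except WT monocytes and WT RPMs. The same gap, between the lowest monocyte group and the higher RPM group, was the only one between neighbours of *Cx3cr1* and of *Cxcr4*. For *Ccr1*, labelled pre-RPMs (4.28 ± 0.671) lay apart both from labelled monocytes (6.35 ± 0.859) above and from WT RPMs (0.588 ± 0.360) below. Neighbours of *Ccr7*, *Cxcr2*, *Cxcr3*, *Ccrl2*, and *S1pr1* all overlapped.

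Across the 24 libraries, which share depth and the 3 cell types as sources of spread, log2 CPM of *Ccr2* and *Cx3cr1* had a Pearson r of 0.991, *Ccr2* and *Cxcr4* of 0.950, and *Ccr1* and *Ccr2* of 0.910. Among 7207 genes compared, the 3 most like *Ccr2* were *Lyz2* (r = 0.996), *Coro1a* (0.996), and *Pstpip1* (0.995). *Lyz2* encodes the lysozyme of myeloid cells, and *Coro1a* an actin-binding protein of leukocytes. Those most like *Cx3cr1* were *Cytip* (0.995), *Nhsl2* (0.994), and *Arhgef10l* (0.994), and those most like *Cxcr4* were *Fosl2* (0.984), *Msrb1* (0.983), and *Dna2* (0.981). These values describe libraries of 3 cell types, of which RPMs stand apart for each of these receptors. *S1pr1* and *Ccr7* had an r of 0.457.

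The other CC receptors did not all go down. The list of 10 genes had 4 tested between pre-RPMs and RPMs in each genotype, of which 2 were called lower (*Ccr1* and *Ccr2*) and 1 higher (*Ccr3*), with a median log2 fold change of -1.53 in WT and -1.86 in labelled mice against -0.0011 and -0.0016 over all genes tested. *Ccr3*, best known as the eotaxin receptor of eosinophils, had 3.67, 1.40, 4.82, and 7.04 CPM in WT monocytes of mice 1, 2, 3, and 4, 52.6, 40.4, 19.6, and 32.6 in WT pre-RPMs, and 313, 268, 392, and 269 in WT RPMs. In labelled mice it had 1.97, 8.41, 4.09, and 6.79 CPM, then 21.3, 12.9, 30.6, and 40.4, and then 323, 341, 299.9, and 386. Its groups did not overlap within a genotype and were highest in RPMs, where those of *Ccr2* were lowest.

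*Ccr3* rose from monocytes to pre-RPMs by a log2 fold change of 3.06 in WT mice (adjusted p = 0.000660 in edgeR, SE 0.38) and 2.28 in labelled mice (SE 0.40, edgeR's adjusted p = 0.00263), and from pre-RPMs to RPMs by 3.05 (SE 0.25, edgeR's adjusted p = 1.44e-07) and 3.63 (SE 0.25, edgeR's adjusted p = 6.04e-09). The call from labelled monocytes to pre-RPMs was lost without the pre-RPM library of mouse 3 (2.21, edgeR's adjusted p = 0.0115) or of mouse 4 (1.98, edgeR's adjusted p = 0.0109). The 7 eosinophil markers, led by *Prg2* in RPMs, had higher sums in pre-RPMs than in monocytes, where *Ccr3* rose too, but lower sums again in RPMs. Their sums lay between 3.37 and 18.1 CPM in monocytes, between 18.7 and 39.6 in pre-RPMs, and between 3.62 and 11.4 in RPM libraries, where *Epx*, *Prg3*, and *Ear1* had 3 counts or fewer. None of the 2 tested in WT and 3 in labelled mice was called from monocytes to pre-RPMs (edgeR, median log2 fold changes 1.56 and 2.00, with an unadjusted p under 0.05 for 1 and 2 of them), and their part in the *Ccr3* counts at this step was not tested. Whether the side scatter gate was used for these libraries is not given in the sources used here, and its effect on eosinophils was not tested. Basophil and mast cell markers, 8 genes, summed to at most 8.55 CPM in any RPM library, and 6 platelet and megakaryocyte markers to at most 9.48 CPM in any library.

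**Figure D4:**
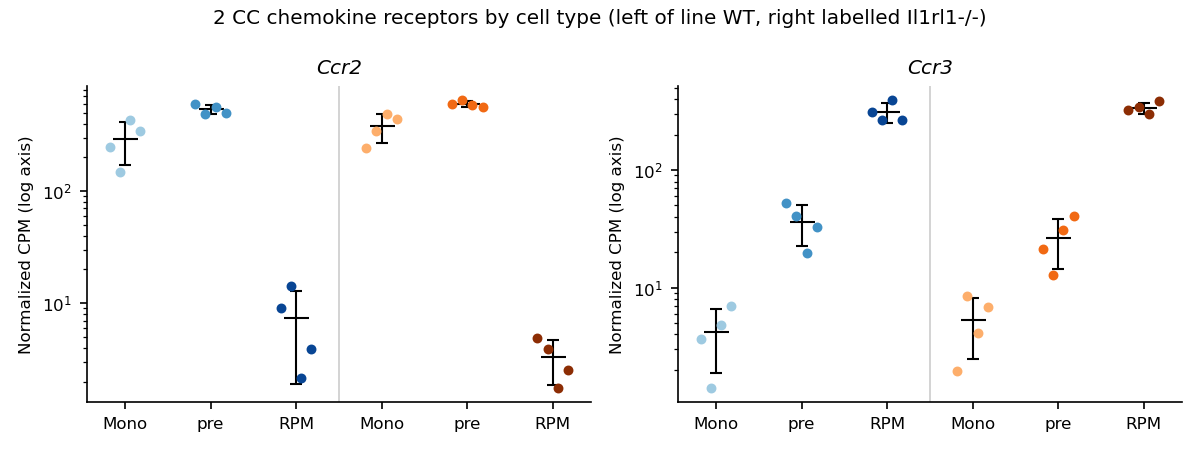
Normalized CPM (log axes) of *Ccr2* and *Ccr3* in each library of monocytes, pre-RPMs, and RPMs, with the mean and SD in black. *Ccr3* lies at 8.41 CPM or less in monocytes and at 268 or more in RPMs, while *Ccr2* lies at 149 or more in monocytes and at 14.3 or less in RPMs.

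The summed CPM of the 10 CC receptors had group medians of 317 in WT monocytes, 568 in pre-RPMs, and 314 in RPMs, and of 409.7, 626, and 344 in labelled mice. *Ccr2* was the most abundant of them in monocytes and pre-RPMs, and *Ccr3* in RPMs. The 8 receptors for CXC, CX3C, and XC chemokines summed to medians of 127, 205, and 16.5 CPM in WT and 129, 192, and 13.4 in labelled mice. From pre-RPMs to RPMs 2 of 3 tested in WT mice and 2 of 2 in labelled mice were called lower, with none higher. In both genotypes these were *Cx3cr1* and *Cxcr4*, already described above. Of 6 atypical receptors *Ccrl2* alone passed the filter.

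Receptors for other chemoattractants split between higher and lower. Of 13 listed, 10 were tested between WT pre-RPMs and RPMs, with 4 called higher (*Cmklr1*, *Fpr1*, *P2ry12*, *P2ry13*) and 5 lower (*C3ar1*, *C5ar1*, *Gpr183*, *Ltb4r1*, *Ptafr*), and a median log2 fold change of -0.94. Labelled mice had 4 of 11 called higher and 5 lower, with a median of -0.24. *P2ry13*, a receptor for ADP, rose by a log2 fold change of 5.32 (SE 0.27) in WT and 5.82 (SE 0.20) in labelled mice. *Fpr1*, the receptor for bacterial formyl peptides, was at least 33.2-fold and 37.1-fold higher in RPMs, and *Ltb4r1*, the receptor for leukotriene B4, at least 17.8-fold and 21.3-fold lower. From monocytes to pre-RPMs *Ptafr*, the receptor for platelet-activating factor, rose in WT (1.13, SE 0.22, edgeR's adjusted p = 0.00694) and labelled mice (1.24, SE 0.23, edgeR's adjusted p = 0.00357), a call lost in 7 of 8 WT and 4 of 8 labelled fits that left out 1 library, and in both genotypes without the monocytes of mice 1 and 2 (log2 fold change of *Ptafr* 0.81 in each).

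Genes of S1P sensing and handling, other than *S1pr1*, changed in both directions. From pre-RPMs to RPMs 3 of 11 tested were called higher and 4 lower in WT mice (median log2 fold change -0.48), and 2 of 10 higher and 5 lower in labelled mice (-0.89). *Klf2*, the transcription factor known to drive *S1pr1* in lymphocytes, fell by 2.98 on the log2 scale in WT (SE 0.24) and fell by 3.36 in labelled mice (SE 0.21), from 148 ± 14.0 to 19.2 ± 8.55 CPM in WT mice (SD, n = 4). *Plpp3*, an ectoenzyme that breaks down S1P, rose by a log2 fold change of 6.29 (SE 0.20) and 7.35 (SE 0.23), from 1.09 ± 0.445 to 90.7 ± 10.5 CPM in WT mice (SD, n = 4). From monocytes to pre-RPMs 2 of 9 were called lower in each genotype, *S1pr4* and *S1pr5*. *S1pr5*, the S1P receptor by which NK cells and patrolling monocytes leave the marrow, fell by 1.56 (SE 0.19) and fell by 1.38 (SE 0.17), beside the fall of all 10 NK cell markers in the same comparisons.

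Some ligands of the 9 receptors were counted in the same sorted populations. Of 23 ligand genes, 4 were tested between WT pre-RPMs and RPMs and 5 in labelled mice, with 3 and 2 called lower and 1 and 0 higher (medians -2.37 and -1.23). *Ccl9* and *Ccl6*, which encode chemokines that bind CCR1, were called lower in both. *Ccl9* fell by 6.58 on the log2 scale in WT (SE 0.27) and fell by 7.43 in labelled mice (SE 0.21), from 163 ± 18.7 to 1.65 ± 1.16 CPM in WT mice (SD, n = 4). *Ccl6* fell by 3.50 (SE 0.15) and fell by 3.43 (SE 0.11). From monocytes to pre-RPMs 3 of 5 were called lower and 1 higher in WT mice, and 3 of 6 lower and none higher in labelled mice. The higher one was *Ccl6*, with a log2 fold change of 1.15 (adjusted p = 0.00939 in edgeR, SE 0.23). That call was lost with the mouse as a block (1.21, edgeR's adjusted p = 0.0104), in 7 of 8 fits that left out 1 library, and without the monocytes of mice 1 and 2 (0.81). Among the lower ones was *Ccl5*, an abundant chemokine of NK and T cells, at log2 fold changes of -3.75 (SE 0.33) and -4.58 (SE 0.36). *Ccl5* was also the single ligand called between genotypes, with a log2 fold change of -1.24 in labelled against WT pre-RPMs (adjusted p = 0.0146 in edgeR, SE 0.22), where 4 of 7 NK cell markers tested were called lower too. That call was lost with all 24 libraries in a single fit (edgeR's adjusted p = 0.466) and without WT pre-RPMs of mouse 1 (0.0557) or labelled pre-RPMs of mouse 1 (0.0572) or 4 (0.0550).

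Downstream of the receptors, 20 genes of G proteins and effectors were listed, and 19 were tested between pre-RPMs and RPMs. In each genotype 1 was called higher, *Gnb4*, and 4 lower, which is 5 of 19 beside 24.7% (WT) and 26.0% (labelled) of all genes called, with medians of -0.67 in WT and -0.63 in labelled mice. *Pik3r6*, a regulatory subunit of the G protein-activated phosphoinositide 3-kinase, fell by 5.69 (SE 0.21) and fell by 6.49 (SE 0.22). *Plcb1*, a phospholipase C that G proteins activate, fell by 5.51 in WT mice (SE 0.23) and was at least 83.0-fold lower in labelled RPMs. At the step from monocytes to pre-RPMs none of 19 (WT) or 18 (labelled) was called by edgeR, while 10 and 8 had an unadjusted p under 0.05, as did 31.9% and 30.6% of all genes tested.

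Genes that switch receptors off went both ways. Of 14 tested of 16 listed, 4 were called higher in RPMs than in pre-RPMs (*Arrb2*, *Rgs1*, *Rgs3*, *Rgs12*) and 5 lower (*Grk5*, *Grk6*, *Rgs2*, *Rgs14*, *Rgs18*) in each genotype, with medians of -0.38 and -0.14. *Rgs1*, which speeds the shut-off of G protein signals and is known to curb chemokine responses, rose by a log2 fold change of 5.27 (SE 0.31) in WT and 5.38 (SE 0.22) in labelled mice. *Grk5*, a kinase that phosphorylates active receptors, fell by 3.52 (SE 0.21) and fell by 3.73 (SE 0.17). At the earlier step *Rgs3* was called lower in WT mice and *Grk3* and *Rgs10* were called higher in labelled mice.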

How the data were processed

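The libraries came from a strand-specific kit for total RNA, with RNA of the 3 sorted populations as input. Per the labels and the file headers, the authors used cutadapt for trimming and STAR 2.5.1 for alignment, and featureCounts 1.6.2 with the Ensembl annotation of GRCm38 to count pairs of reads over exons by gene name and strand. The deposited values are counts, neither normalized nor filtered, in 54735 genes and 24 libraries of between 3562367 and 6559454 counts. Groups were taken from the labels. No 2 replicates agreed within sampling noise (lowest chi-square per degree of freedom 3.85).

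Groups were compared pairwise with edgeR 4.0.16 in R 4.3.3, which uses limma 3.58.1 (filterByExpr, TMM, quasi-likelihood F test, Benjamini-Hochberg adjustment over all genes tested), and genotype interactions over 24 libraries. Cell type changes were called where the adjusted p was below 0.01 and the log2 fold change beyond 1 in either direction, and genotype differences and interactions at an adjusted p under 0.05. The SE was derived from the F statistic. For CPM, TMM factors were computed on all 24 libraries together (0.798 to 1.38), with a prior count of 2 on the log2 scale. A fold against a group with at most 3 counts in each library is a bound computed against 3 counts per library and covers counting error only. P-values measure the spread between 4 mice per group.

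The mouse number marks the same animal within a genotype, and was tried as a block. Same-numbered libraries deviated from their group means with correlations across genes from -0.039 to 0.365 within a genotype. Between genotypes, same-numbered libraries are different animals that share an i5 index, with correlations from 0.052 to 0.508.

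Genes named include the 9 receptor genes, *Il1rl1*, and up to 4 called genes per list and comparison with the largest change and no overlap. Also named are the 3 genes most like each member whose mean log2 CPM was at least 3. Further called genes and some markers are named as well. Members and lists (20 lists of 217 genes) were chosen with earlier results of these data known. A gene of the CC receptor list is not reported here. Alternatives were DESeq2 1.42.0, RLE factors, other filters, other sets of libraries, the block, each library left out, and, chosen after seeing the data, leaving out the monocytes of mice 1 and 2. The tests were tested on simulated data. Python 3.11.15, NumPy 2.4.6, pandas 2.3.3, and matplotlib 3.10.9 were also used.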

Additional observations from a re-analysis of the deposited data

Results flagged for a closer look

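In groups of 4 libraries, a library was singled out where its gap to the nearest other exceeded Dixon's critical value for 4 values, which was the case for 5 of 54 groups tested, and chance gives about 1 in 20. *Ccr1* in WT pre-RPMs was lowest in mouse 3, at 4.90 CPM (20 counts) against 8.09 to 8.40 in the others. *Ccr7* in monocytes labelled *Il1rl1*-/- was lowest in mouse 3, at 1.29 CPM (6 counts) against 2.73 to 2.96. *Ccr7* in RPMs labelled *Il1rl1*-/- was highest in mouse 1, at 5.38 CPM (24 counts) against 1.75 to 2.34. *Cxcr2* in RPMs labelled *Il1rl1*-/- was lowest in mouse 4, at 0.426 CPM (2 counts) against 0.654 to 0.673, all near the floor. *Ccrl2* in WT RPMs was highest in mouse 2, at 3.26 CPM (16 counts) against 1.87 to 2.08.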

How the results depend on the processing

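The falls of *Ccr1*, *Ccr2*, *Cx3cr1*, and *Cxcr4* in RPMs were called in both genotypes under each alternative in which the gene was tested, and RLE size factors changed no count of called receptor genes. With at least 10 counts in every library, only 2, 2, 1, and 2 of the 9 genes were left to test in the comparisons of WT RPMs with pre-RPMs and with monocytes and of labelled RPMs with pre-RPMs and with monocytes, of which 1 was called each time (*Cxcr4*), and between labelled monocytes and pre-RPMs 0 of 4 were called. From monocytes to pre-RPMs, 2 genes were called in WT mice (*Cxcr2* and *Cxcr3*) with every gene with at least 1 count or with all 24 libraries in a single fit. In labelled mice 2 were called with DESeq2 (*Cxcr2* and *Cxcr3*), 3 with every gene with at least 1 count (*Cxcr2*, *Cxcr3*, and *S1pr1*), and 2 with the replicate block (*Cxcr2* and *S1pr1*). Between labels, *Cxcr2* was the 1 gene called in pre-RPMs with DESeq2 or with every gene with at least 1 count. With every gene with at least 1 count, *Ccr2* was the 1 gene called in RPMs and in the interactions of pre-RPMs to RPMs and of monocytes to RPMs. The block changed no other count of called receptor genes, and the cause of these changes was not tested.

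Leaving out single libraries, the number called ranged from 0 to 2 for WT monocytes to pre-RPMs, from 1 to 2 for labelled monocytes to pre-RPMs, from 4 to 5 for WT monocytes to RPMs, and did not change in the other comparisons. In the comparisons of cell types, log2 fold changes that were not called turned sign for 3 genes. Those of *Ccr7* ranged from -0.73 to 0.58 (WT monocytes to pre-RPMs), -0.086 to 1.22 (WT monocytes to RPMs), -0.11 to 0.22 (labelled monocytes to pre-RPMs), -0.38 to 0.24 (labelled pre-RPMs to RPMs), and -0.23 to 0.39 (labelled monocytes to RPMs). Those of *Ccrl2* ranged from -0.22 to 0.23 (WT monocytes to pre-RPMs), -0.14 to 0.26 (labelled monocytes to pre-RPMs), and -0.00014 to 0.33 (labelled pre-RPMs to RPMs), and that of *S1pr1* from -0.14 to 0.41 (WT monocytes to RPMs). Without the monocytes of mice 1 and 2, the log2 fold changes from WT monocytes to pre-RPMs turned to 0.21 for *Ccr1*, 1.62 for *Ccr7*, 0.56 for *Ccrl2*, and 0.40 for *S1pr1*, those from WT monocytes to RPMs to 0.028 for *Cxcr3* and 0.20 for *Ccrl2*, and that from labelled monocytes to RPMs to 0.40 for *S1pr1*, none of them called. Where 1 library is left out, the group of 3 shares its spread estimate with the other group.

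Over all genes, DESeq2 called 694 against 396 from WT monocytes to pre-RPMs, 26 against 7, and 60 against 26 between labels in monocytes and RPMs, and 17 against 3 and 33 against 4 for the interactions of pre-RPMs to RPMs and monocytes to RPMs. Every gene with at least 1 count gave 1094 against 396 and 1060 against 543 from monocytes to pre-RPMs, 139, 265, and 272 against 7, 59, and 26 between labels, and 197, 74, and 179 against 3, 0, and 4 for the interactions. The minimum of 10 counts per library gave 217, 1468, and 1469 (WT) and 264, 1542, and 1536 (labelled) against 396, 2776, 2771, 543, 2973, and 3009 between cell types, 3 and 37 against 7 and 59 between labels in monocytes and pre-RPMs, and 0 and 2 against 3 and 4 for the interactions with RPMs. Other libraries in the fit gave 773 against 396 from WT monocytes to pre-RPMs, 16 and 17 against 7 and 59 between labels in monocytes and pre-RPMs, and 13 against 3 for the interaction of pre-RPMs to RPMs. The replicate block gave 27, 145, and 81 against 7, 59, and 26 between labels, and 16 and 37 against 3 and 4 for the interactions with RPMs. Leaving out the monocytes of mice 1 and 2 gave 239 against 396 and 321 against 543 from monocytes to pre-RPMs. With single libraries left out, the count from WT monocytes to pre-RPMs ranged from 168 (without pre-RPMs of mouse 4) to 1041 (without monocytes of mouse 3), with 249 without monocytes of mouse 1 and 188, 241, and 261 without pre-RPMs of mice 1, 2, and 3. In labelled mice the same step had 336 without monocytes of mouse 2, and 358 and 342 without pre-RPMs of mice 1 and 4. Between labels, monocytes had 4 without WT mouse 1 and 1 without labelled mouse 2, and pre-RPMs 37 without WT mouse 1 and 38 without labelled mouse 4. The interaction of monocytes to RPMs had 10 without labelled monocytes of mouse 4, and that of pre-RPMs to RPMs ranged from 1 to 4.

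The order of group means was kept for 8 of 9 genes with RLE size factors (not *Ccrl2*) and for 7 of 9 with totals that leave out *Gm42418* (not *Ccrl2* and *S1pr1*). Depth limits *Ccr1*, *Cxcr2*, and *Cxcr3* in RPMs of both genotypes, *Cx3cr1* in labelled RPMs, *Cxcr2* in labelled pre-RPMs, *Cxcr3* in pre-RPMs of both genotypes, and *Ccr7* in WT monocytes, where at least 1 library had 3 counts or fewer.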
